A study of Mus musculus with 6 samples.

Results

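The cells described here are the gated cells of mouse testis: barcodes chosen with a gate built on genes of spermatogonia and of preleptotene spermatocytes, the cells that divide by mitosis and then enter meiosis. A barcode was eligible with at least 1000 unique molecular identifiers (UMIs, counts of single captured transcripts) and less than 20% of them from mitochondrial genes. An eligible barcode entered the gate with at least 1 UMI of Dazl, at least 3 UMIs from at least 2 of 11 gate genes (Sohlh1, Stra8, Crabp1, Rhox13, Zbtb16, Nanos3, Uchl1, Dmrtb1, Dmrt1, Sall4 and Esx1) and at least 0.05% of its UMIs from those genes. Protamine and transition protein transcripts (Prm1, Prm2, Tnp1 and Tnp2) had to stay under 3% of its UMIs. The gate held 1233 of 57024 eligible barcodes (2.16%), out of 68400 in all. Because measured values chose these cells, Dazl, the gate genes and the protamine and transition protein genes are given below as a description with no test.

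Single-cell RNA sequencing was done on whole testes of 6 male C57BL/6J mice aged 11 weeks, with 1 droplet library (10x, 3' chemistry) from both testes of each mouse. From 3 weeks of age and for 8 weeks, 3 control mice drank plain water and 3 nicotine mice drank water that held nicotine at 200 µg/mL. The labels name no transgene or mutation. The 6 libraries held 67853893 to 88329607 UMIs in 10823 to 12317 barcodes.

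Spermatogonia lie at the edge of the seminiferous tubule. The undifferentiated ones include the stem cells and are marked by the transcription factors Zbtb16 and Sall4 and the RNA-binding protein Lin28a; differentiating ones carry Kit, the receptor for stem cell factor. Retinoic acid induces Stra8, whose protein works with MEIOSIN (the gene Gm4969) to switch on meiotic genes in preleptotene cells, while MEIOC protects the meiotic programme after transcription. Prdm9 then marks the places where recombination starts, and Dmc1, Sycp1 and Sycp3 serve strand exchange and the synaptonemal complex. In pachytene cells the X and Y chromosomes are silenced, and haploid spermatids follow.

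Promoters are shown for Stra8, Gm4969 and Prdm9, meiotic-entry genes whose levels did not overlap between the mouse groups in the spermatogonial cells described below. Only windows that held the motif marked in them are shown. Meioc levels did not overlap either, but Meioc was not among the genes found with a marked motif, and its window is not shown. These are reasons for display and no test result. Stra8 was a gate gene and is described only, Gm4969 was too low to test, and Prdm9 was tested and did not pass. Among the tested genes of those cells, 9.37% had no overlap, and none passed the test between the mouse groups. Each is 250 bases before to 50 bases after a RefSeq start (GRCm38.p6), 5′ to 3′ on the strand of the gene, at chr6:34920698-34920997 (+) for Stra8, chr7:19118295-19118594 (-) for Gm4969 and chr17:15564305-15564604 (-) for Prdm9. Capitals mark AGGTCA, the core site of retinoic acid receptor elements, in Stra8, and CNCCTCAG, the motif known for STRA8 and MEIOSIN, in Gm4969 and Prdm9. Prdm9 has another RefSeq start, whose window held no CNCCTCAG and is not shown.
Stra8: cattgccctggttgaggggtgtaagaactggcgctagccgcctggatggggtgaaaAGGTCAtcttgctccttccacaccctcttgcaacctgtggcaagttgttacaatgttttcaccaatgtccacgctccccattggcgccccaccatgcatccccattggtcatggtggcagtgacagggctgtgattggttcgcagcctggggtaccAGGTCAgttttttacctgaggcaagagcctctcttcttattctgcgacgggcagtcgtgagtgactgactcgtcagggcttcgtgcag
Gm4969: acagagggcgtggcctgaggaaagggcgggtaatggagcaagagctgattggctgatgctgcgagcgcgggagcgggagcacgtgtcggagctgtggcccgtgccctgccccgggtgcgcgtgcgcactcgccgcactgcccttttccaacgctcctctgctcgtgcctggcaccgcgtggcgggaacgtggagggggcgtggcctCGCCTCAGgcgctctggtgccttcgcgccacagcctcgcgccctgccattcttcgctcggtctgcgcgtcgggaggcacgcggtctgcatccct
Prdm9: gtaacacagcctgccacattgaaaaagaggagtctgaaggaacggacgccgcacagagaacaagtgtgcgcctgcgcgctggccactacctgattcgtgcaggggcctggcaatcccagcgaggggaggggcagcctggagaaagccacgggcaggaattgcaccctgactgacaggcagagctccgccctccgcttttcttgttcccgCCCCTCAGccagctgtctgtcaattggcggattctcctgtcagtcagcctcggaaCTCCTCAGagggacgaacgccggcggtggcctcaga

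Searched on both strands, AGGTCA began at bases 57 and 213 of the Stra8 window. CNCCTCAG began at base 207 of the Gm4969 window and at bases 210 and 265 of the Prdm9 window. Of the 15 genes in a list of preleptotene and meiotic-entry genes, 14 had a RefSeq promoter; 2 of these genes (Gm4969 and Prdm9) held CNCCTCAG and 5 (Stra8, Dmrtc2, Mei1, Hormad1 and Sycp3) held AGGTCA. Over all 32851 RefSeq promoters of the same length, 7.942% held CNCCTCAG and 16.26% held AGGTCA. These matches describe the letters of the windows only.

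Most of the gate-gene UMIs of the gated cells came from 1 gene. Dmrtb1, a transcription factor that restrains meiotic entry in spermatogonia, gave 33047 of the gate-gene UMIs of the gated cells (90.5%). In 1125 of the 1233 cells Dmrtb1 gave at least 50% of the gate-gene UMIs, and 91 cells still passed the gate when Dmrtb1 was not counted. The cells were clustered into 12 sub-clusters, numbered by size, and 1 of them, sub-cluster 4 with 125 cells (10.1% of the gated cells), held most of the Stra8, Crabp1 and Sall4 UMIs. It was picked as the sub-cluster with the highest share of UMIs from Sohlh1, Stra8, Crabp1, Rhox13, Zbtb16, Uchl1, Dmrt1 and Kit. High levels of these genes in it therefore follow from the choice and are no test of the name. Only this sub-cluster is called spermatogonia- and preleptotene-like, or spermatogonial for short. The name is for the sub-cluster as a whole: its stage groups 3, 6 and 7, described below, were low in both Stra8 and Crabp1. The other 1108 are called the other gated cells. Of the 91 cells that passed without Dmrtb1, 90 were in the spermatogonial sub-cluster. They made up 72% of its 125 cells, and the rest of the 125 passed only with Dmrtb1 counted. In 25 of the 125, Dmrtb1 gave at least 50% of the gate-gene UMIs.

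The spermatogonial sub-cluster held 286 of the 345 Stra8 UMIs of all eligible barcodes (82.9%), 214 of the 271 UMIs of Crabp1, which binds retinoic acid in the cytoplasm (79.0%), and 42 of the 51 UMIs of Sall4 (82.4%). It held smaller shares of Rhox13, a homeobox gene of differentiating spermatogonia and preleptotene cells (30.4%), of Dmrt1, a transcription factor that governs the choice between mitosis and meiosis (29.4%), and of Uchl1, a ubiquitin hydrolase abundant in spermatogonia (9.39%). Most UMIs of Zbtb16 and Sohlh1 also lay outside it: it held 92 of 797 (11.5%) and 78 of 1352 (5.77%). Its share of Dmrtb1 was 0.149% of 240831 UMIs. For Dazl, a germ-cell RNA-binding protein, the sub-cluster held 1104 of 12891 UMIs (8.56%). The other gated cells held 3 UMIs of Stra8, 8 of Crabp1 and 0 of Sall4 among 39897557 UMIs, and a count of 0 at that depth allows up to 0.0752 counts per 1000000 UMIs (CPM) for Sall4. Nanos3 and Esx1 had 156 and 1248 UMIs in the other gated cells against 5 and 96 in the spermatogonial sub-cluster. These are raw counts, from 39897557 UMIs in the other gated cells and 1128467 in the sub-cluster, so they do not rank the levels.

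**Figure D1:**
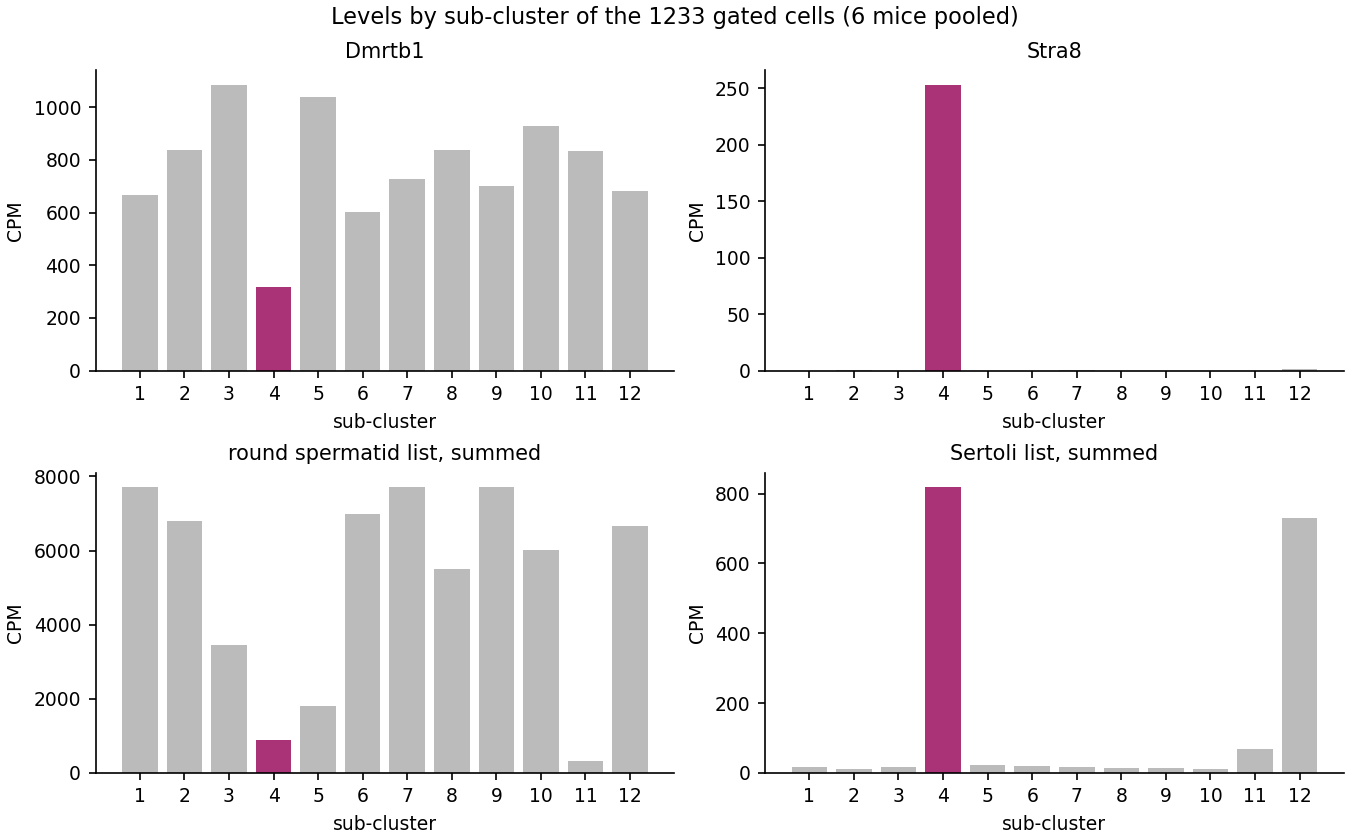
Bars give levels in the 12 sub-clusters of the gated cells (horizontal axis), in CPM pooled over the 6 mice, with 1 panel each for Dmrtb1, Stra8, the summed round spermatid list and the summed Sertoli list; sub-cluster 4 is coloured. Stra8 reached 253 in sub-cluster 4 and at most 1.45 in any other, whereas Dmrtb1 ran from 601 to 1087 in the others against 317 in sub-cluster 4, and the Sertoli list reached 820 in sub-cluster 4 and 731 in sub-cluster 12.

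Depth differed as well. The gated cells had a median of 23783 UMIs, against 3593 in the other eligible barcodes, and 57.4% of them had at least 20000 UMIs, against 7.01%. The spermatogonial sub-cluster had a median of 6617 UMIs and 9 cells (7.2%) with at least 20000. When every barcode with at least 2000 UMIs was thinned to 2000 UMIs, 74 passed the gate. The median share of mitochondrial UMIs was 2.45% in the spermatogonial sub-cluster and 0.0298% in the other gated cells. Just inside the gate, 29 barcodes had exactly 3 gate-gene UMIs, with a median of 3496 UMIs, and 28 barcodes met all other criteria with 2, with a median of 2451. Between 0.05 and 0.06% of gate-gene UMIs lay 136 gated cells (median of 13 Dmrtb1 UMIs), and between 0.04 and 0.05% lay 95 barcodes that were left out (median of 9).

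Of the 68400 barcode sequences 1135 occurred in more than 1 library, 12 of them gated. The doublet caller Scrublet marked 0 to 1.95% of the barcodes of a library with its own threshold, and 0% in control 3, so it did not work there. Removing instead a share of the highest scores in each library (0.8% per 1000 barcodes) took out 3.87 to 6.45% of the gated cells of a mouse. Clustering at a resolution of 0.5 gave a matching cluster of 135 cells that held all 125. With the gate genes left out of the clustering, the matching cluster had 73 cells, so it held 58.4% of the 125.

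Genes that were not in the gate and led the gated cells over the other eligible barcodes fell into a spermatogonial set and a larger set from the other gated cells. Auts2, a chromatin regulator best known in neurons, was first: its mean over mice was 50.5 CPM (the UMIs of a gene summed over the cells of a mouse, as counts per 1000000 UMIs of those cells) in gated cells and 5.74 CPM in the others. That level came from the spermatogonial sub-cluster, at 1474 CPM against 3.06 CPM in the other gated cells. The next leading genes had the opposite pattern. Dscc1, which helps to join sister chromatids, stood at 134 CPM in the other gated cells and 33.9 CPM in the spermatogonial sub-cluster. The level of 1700067P10Rik was 980 CPM in the other gated cells and 111 CPM in the sub-cluster. Hmgn1, a nucleosome-binding protein, was similar in both, at 401 and 462 CPM.

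The spermatogonial sub-cluster was led by Auts2, Stra8, Rpl36a, Crabp1, Marcksl1, Ncl, Atp2b1, Hist1h1a, Rock2 and Neto2. Rpl36a, an X-linked ribosomal protein, averaged 306 CPM in it and 0.729 CPM in the other gated cells, and Ncl (nucleolin, needed to make ribosomal RNA) averaged 961 and 5.01 CPM. Hist1h1a, a replication-linked linker histone, averaged 151 and 0.145 CPM. Cenpa, the histone of centromeres, averaged 145 CPM against 0.0624 CPM, and Hells, a chromatin remodeller required for DNA methylation, averaged 478 CPM against 2.85 CPM. Igf1r, the receptor for insulin-like growth factor, averaged 234 CPM against 0.861 CPM. Since clustering used these genes, they describe the sub-cluster and are no test of it.

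The other 11 sub-clusters held more pachytene transcripts than the spermatogonial one. A list of 14 pachytene genes summed to 7732 to 12822 CPM in them, against 4005 CPM in the spermatogonial sub-cluster. A list of 12 round spermatid genes ran from 317 CPM in sub-cluster 11 to 7719 CPM in sub-cluster 7, with 878 CPM in the spermatogonial one. Sub-cluster 11 (39 cells) was led by Cyp19a1, Lypd10, the POU-domain gene Pou5f2 and others, and took 0.0691% of its UMIs from the X chromosome, the lowest of all. Sub-clusters 3 (127 cells; led by Ssxb2) and 5 (116 cells; led by C730002L08Rik, with Nek2, a centrosomal kinase) took 0.709 and 0.496% from the X. Sub-cluster 6 (111 cells; led by Osbpl7, Gm8251 and 1700016C15Rik) had the highest median share of protamine and transition protein UMIs, 1.66%. Sub-cluster 12 (32 cells) was led by the matrix protein Dcn, by Akr1cl and by Insl3, the hormone of Leydig cells: Leydig and stromal lists summed to 613 CPM and the Sertoli list to 731 CPM there. None of the other 11 was given a cell type name.

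Clustered again by themselves, the 125 spermatogonial cells split into 7 groups, called stage groups here and numbered by size; they were defined after the data were seen and are pooled over mice, so intervals in brackets are exact 95% Poisson intervals that cover counting error only. Stage group 4 (17 cells) had the highest levels of the undifferentiated markers Zbtb16, at 239 CPM (177 to 316), Lin28a, at 141 CPM (94.7 to 203), and Sall4, at 68.3 CPM (37.3 to 115). Its Dmrt1 level was 498 CPM (406 to 604). The stage group 1 intervals of Lin28a (41.2 to 121), Sall4 (30.4 to 103) and Dmrt1 (307 to 483) overlapped these, and that of Zbtb16 (71.6 to 169) did not. Taf4b, listed here with genes of undifferentiated spermatogonia, was highest in stage group 5, at 421 CPM against 161 CPM in stage group 4. Stage group 1 (33 cells) held the differentiating markers, with Kit at 201 CPM (144 to 273), Crabp1 at 614 CPM (511 to 731) and Uchl1 at 722 CPM (610 to 848). Kit overlapped in its interval with stage group 4, at 127 CPM (82.8 to 186), and so did Uchl1, at 702 CPM (592 to 827). Crabp1 did not, at 307 CPM (236 to 393).

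The summed list of 15 preleptotene and meiotic-entry genes was 3669 CPM in stage group 2, 7635 CPM in stage group 3 and 7992 CPM in stage group 5, against 1390 to 2666 CPM in the others. In stage group 2 (28 cells) Stra8 was at 369 CPM (289 to 464), Meioc at 308 CPM (236 to 396) and Esx1, an X-linked homeobox gene, at 232 CPM (170 to 310). In stage group 5 (15 cells) Stra8 reached 867 CPM (709 to 1049), Meioc 570 CPM (443 to 721), Prdm9 272 CPM (188 to 383), Gm4969 182 CPM (114 to 275) and the recombinase Dmc1 636 CPM (502 to 795). No UMI of Crabp1, Zbtb16, Sall4, Lin28a or Sohlh1 was counted in stage group 5, which allows up to 24.8 CPM for each. The Stra8 interval of stage group 2 overlapped that of stage group 4, at 239 CPM (177 to 316). Stage group 3 (20 cells) had Sycp3 at 2726 CPM (2447 to 3029), Meioc at 268 CPM (186 to 374), which overlapped stage group 2, and Stra8 at 31.5 CPM (8.59 to 80.7). Sycp1 was at 2025 CPM (1785 to 2288) there. No UMI of Crabp1, Sohlh1 or Sall4 was counted in stage group 3, which allows up to 23.6 CPM for each. The list of 14 Sertoli genes summed to 4720 CPM in stage group 3, against 121 to 827 CPM in the other stage groups.

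The last stage groups were unlike the rest. Stage group 6 (7 cells) had a median of 20278 UMIs, 3453 CPM of the round spermatid list and 8803 CPM of the pachytene list, and 5 of its 7 cells were among the highest doublet scores. Stage group 7 (5 cells) had 14646 CPM of the pachytene list and took 0.209% of its UMIs from the X chromosome, against 1.72 to 2.26% in stage groups 1 to 5. Stage groups 6 and 7 together held 24.3% of the UMIs of the sub-cluster, and 34.5, 33.7 and 20.2% in the control mice against 22.4, 23.9 and 10.0% in the nicotine mice. Results for the sub-cluster are therefore also given without them.

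**Figure D2:**
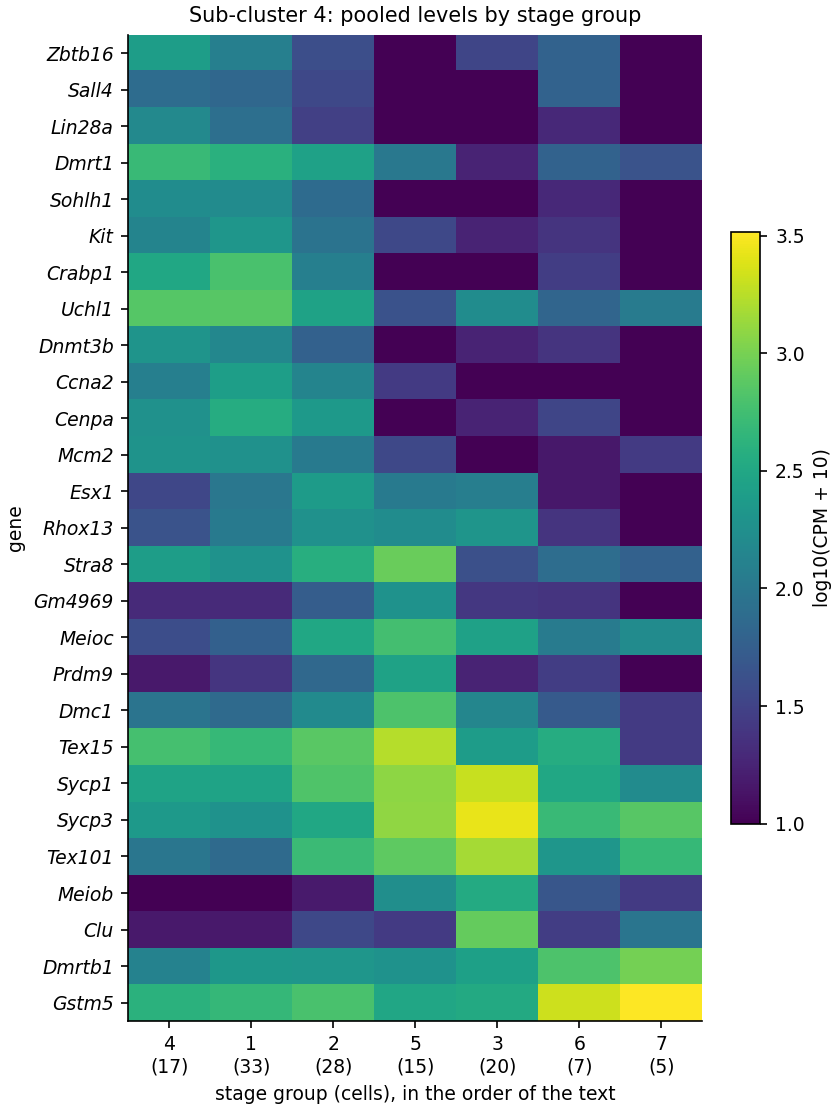
Levels of marker genes (rows) in the 7 stage groups of the 125 spermatogonial cells (columns, with their cells in brackets), pooled over mice; colour is log10 of CPM with 10 added. Zbtb16 and Lin28a are highest in stage group 4, Crabp1 in stage group 1, Stra8, Prdm9 and Dmc1 in stage group 5 and Sycp3 in stage group 3.

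In every mouse the share of UMIs from X-linked genes was higher in the spermatogonial sub-cluster than in the pooled other gated cells. The gate genes were left out of this share. The sub-clusters of the other gated cells took from 0.0691% (sub-cluster 11) to 1.70% (sub-cluster 6) of their UMIs from the X chromosome. The spermatogonial sub-cluster took 1.71%, so a high share was not particular to it. By mouse, the X-linked share was 1.60, 1.74 and 1.81% in the spermatogonial sub-cluster of the control mice and 1.61, 1.86 and 1.72% in that of the nicotine mice. The nicotine and control values overlapped (exact permutation test over mice, two-sided, p = 0.9, adjusted p = 0.949 over 39 measures per mouse). In the other gated cells the share was 1.01, 1.01 and 1.12% in control mice and 1.30, 1.20 and 1.19% in nicotine mice (1.05% ± 0.0644 against 1.23% ± 0.0611, SD, n = 3 each). These groups did not overlap, with an exact p of 0.1, which is the smallest that 3 against 3 mice allow, and an adjusted p of 0.65. In the other eligible barcodes the values overlapped, at 1.14% ± 0.0628 and 1.18% ± 0.0164 (SD, n = 3 each; exact p = 0.4).

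**Figure D3:**
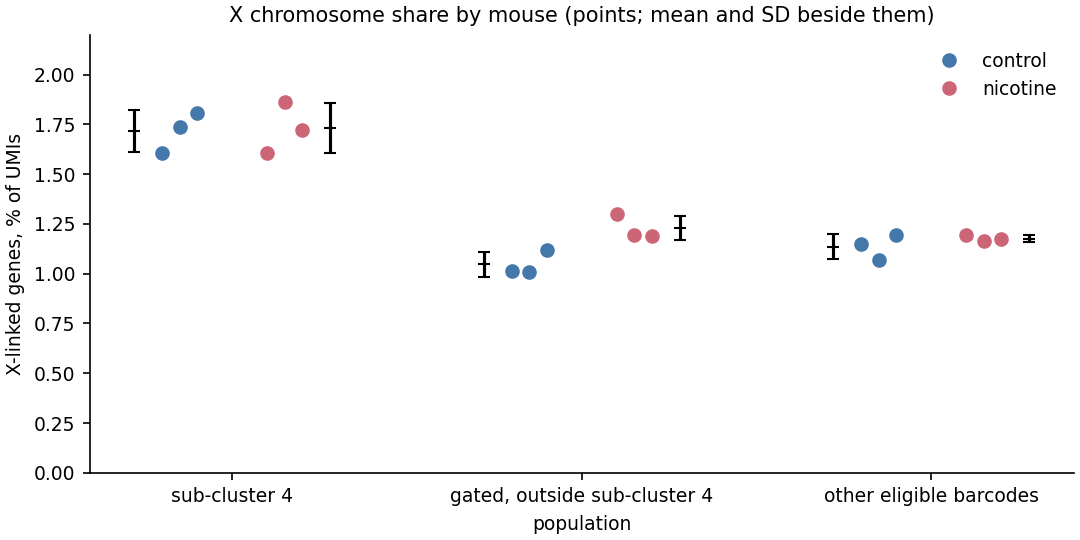
Share of UMIs from X-linked genes (gate genes left out), in percent, 1 point per mouse with group means and SD (n = 3), for the spermatogonial sub-cluster, the other gated cells and the other eligible barcodes. The spermatogonial values lie between 1.60 and 1.86%, and in the other gated cells the 3 nicotine mice lie above the 3 control mice.

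The first comparison between mouse groups was the number of cells. The gated cells made up 2.00, 2.92 and 2.40% of the eligible barcodes of the control mice (215, 248 and 239 cells) and 2.04, 2.43 and 1.32% of those of the nicotine mice (181, 219 and 131 cells). The mean was 2.44% ± 0.463 in controls and 1.93% ± 0.565 with nicotine (SD, n = 3 each; exact permutation p = 0.5, adjusted p = 0.848). Nicotine 3 was the lowest and the groups overlapped. The spermatogonial sub-cluster alone made up 0.195, 0.212 and 0.241% of eligible barcodes in controls and 0.225, 0.222 and 0.221% with nicotine (0.216% ± 0.0230 against 0.223% ± 0.0022; exact p = 0.7). Its share therefore differed by less than the spread between control mice, with 18 to 24 cells in each mouse.

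Among the sub-clusters, 3 had shares of the gated cells that did not overlap between the groups, each with an exact p of 0.1 and an adjusted p of 0.4 over the 12. Sub-cluster 12, with its Leydig and stromal transcripts, made up 3.74% ± 0.866 of the gated cells in controls and 1.11% ± 0.479 with nicotine (SD, n = 3 each). Sub-cluster 5 made up 11.1% ± 3.09 and 7.09% ± 0.597, and sub-cluster 6 made up 7.07% ± 2.62 and 11.6% ± 1.61. Shares of a whole depend on each other, so these are not separate changes. The gated cells of nicotine mice had lower median gate-gene UMIs (17, 21 and 18) than those of control mice (25, 23 and 22), without overlap; since the gate used these UMIs, this is a description with no test. Their median UMIs per cell overlapped, at 26052, 22833 and 27427 in controls and 19366, 25386 and 18070 with nicotine.

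**Figure D4:**
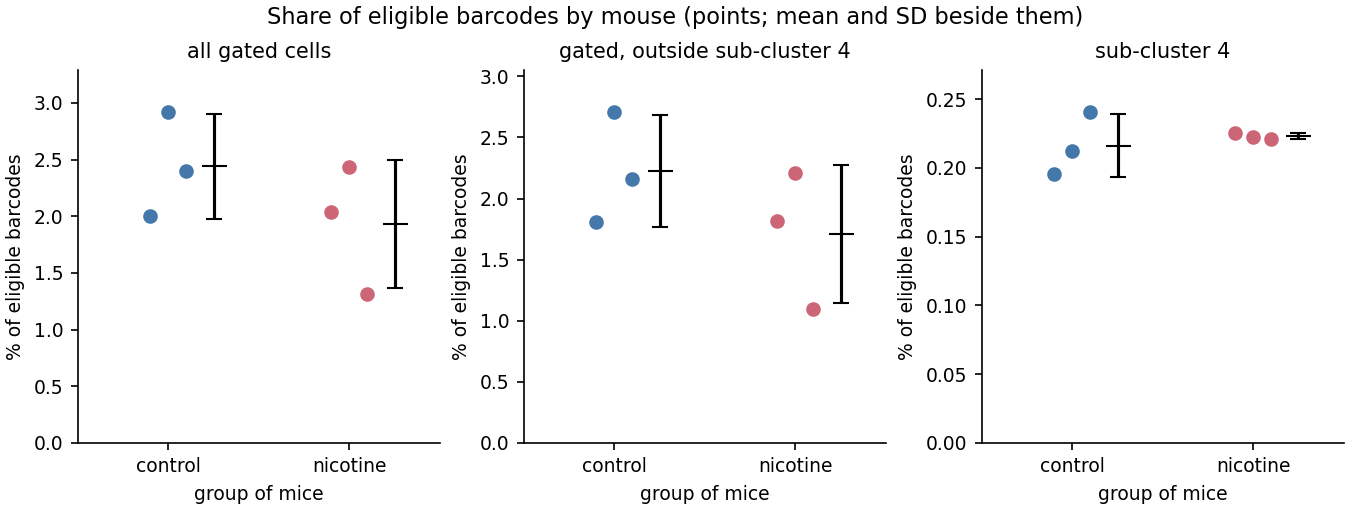
All gated cells, the other gated cells and the spermatogonial sub-cluster (3 panels) in percent of the eligible barcodes of each mouse, 1 point per mouse, with group means and SD (n = 3). The gated share runs from 1.32 to 2.92% and the sub-cluster share from 0.195 to 0.241%, and in each panel the groups overlap.

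Gene levels in the spermatogonial sub-cluster were compared with edgeR's quasi-likelihood test on UMIs summed per mouse, with Benjamini-Hochberg adjustment over 5103 genes, and none passed an adjusted p of 0.05 (0 called, 0%); 299 genes had an unadjusted p under 0.05, and DESeq2 called 0. The meiotic-entry genes Stra8, Meioc, Prdm9 and Gm4969 had lower levels in each nicotine mouse than in each control mouse; Meioc and Prdm9 were tested and did not pass, Stra8 was a gate gene and is described only, and Gm4969 was too low to test. Stra8 (chr6:34920163-34939344, GRCm38, plus strand) was at 493, 290 and 227 CPM in control mice and 136, 160 and 138 CPM in nicotine mice. Every nicotine value lay below every control value (336 ± 139 against 145 ± 13.2 CPM, SD, n = 3 each), with a log2 fold change of -1.21. Its level also bears on which cells were in the gate. In the sub-cluster 9.37% of the tested genes had no overlap between the groups.

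Meioc, no gate gene, was at 301, 170 and 241 CPM in control mice and 122, 104 and 122 CPM in nicotine mice, again without overlap (log2 fold change -1.02, SE 0.277, edgeR adjusted p = 0.411). Prdm9 was at 69.2, 56.6 and 56.6 CPM in controls and 38.9, 34.8 and 22.2 CPM with nicotine (log2 fold change -0.90, SE 0.482, edgeR adjusted p = 0.879), also without overlap but from 54 UMIs in all. Gm4969 had 40 UMIs, did not pass the filter on low counts and was not tested; its values were 44.8, 35.4 and 56.6 CPM against 29.2, 34.8 and 5.54 CPM. The control and nicotine values of Gm4969 met closely, at 35.4 and 34.8 CPM.

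Stage group 5, where these 4 transcripts were highest, had 4, 2 and 4 cells in the control mice and 3, 2 and 0 in the nicotine mice. With those cells left out, Stra8 was at 387, 197 and 156 CPM in controls and 54.7, 126 and 138 CPM with nicotine, and Meioc at 194, 137 and 193 CPM against 76.6, 111 and 122 CPM. Neither gene overlapped between the groups without stage group 5. Prdm9 then overlapped, at 31.4, 38.0 and 5.37 CPM against 16.4, 14.8 and 22.2 CPM. With stage groups 6 and 7 left out instead, edgeR called 0 of 4366 genes; the log2 fold change was -1.33 for Meioc (edgeR adjusted p = 0.183) and, as a description, -1.36 for Stra8.

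**Figure D5:**
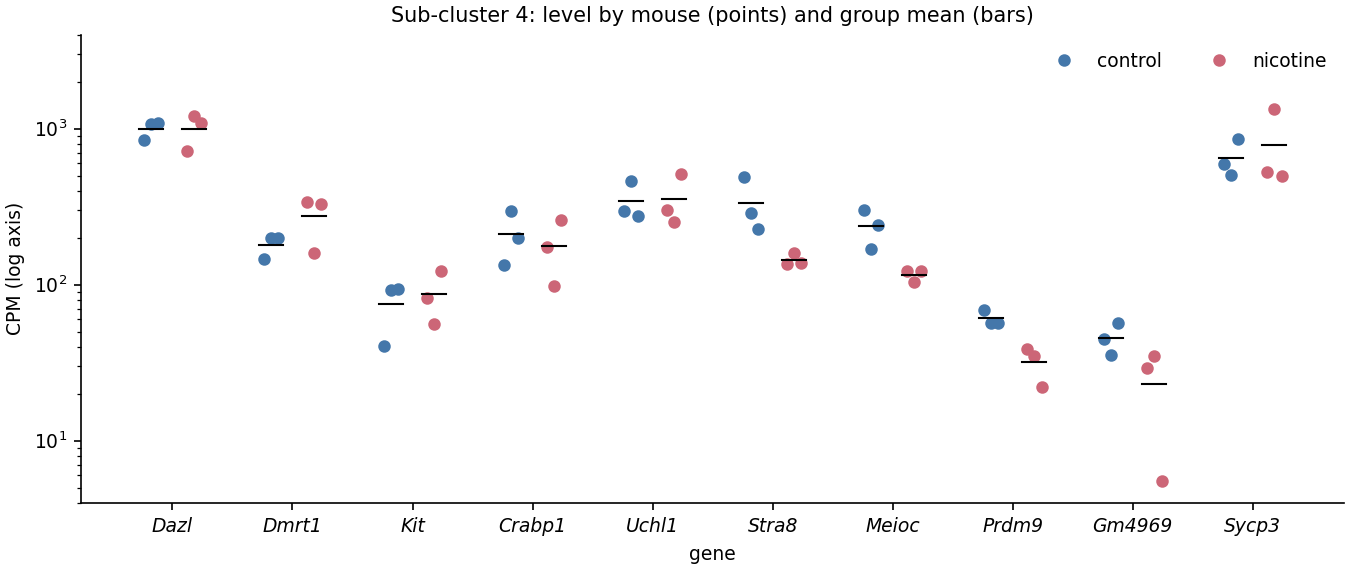
Levels in the spermatogonial sub-cluster in CPM, 1 point per mouse on a log axis, control and nicotine side by side with bars at the group means, for genes of the mitotic and meiotic-entry steps. For Stra8 the control mice sit at 227 to 493 and the nicotine mice at 136 to 160, while Dazl and Kit overlap.

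Among the mitotic markers of the sub-cluster that were not in the gate, Kit was at 40.7, 92.0 and 94.4 CPM in controls and 82.8, 55.7 and 122 CPM with nicotine, with overlap (log2 fold change 0.29, SE 0.386). Dnmt1, which copies DNA methylation at replication, was at 77.3, 142 and 104 CPM and 180, 132 and 238 CPM (log2 fold change 0.86, SE 0.304, edgeR adjusted p = 0.725). Neither gene passed the test, and Kit was among the markers by which the sub-cluster was picked. Gfra1, Id4 and Etv5, markers of stem spermatogonia, had 16, 16 and 6 UMIs in all and could not be compared at this depth.

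The genes that the gate used are given as a description. Dazl was at 843, 1068 and 1095 CPM in controls and 716, 1197 and 1080 CPM with nicotine (log2 fold change 0.02), and Crabp1 at 134, 297 and 198 CPM against 175, 97.5 and 260 CPM (-0.14 on the log2 scale). Both overlapped between the groups. Dmrt1 was at 147, 198 and 198 CPM in controls and 341, 160 and 327 CPM with nicotine, also with overlap (log2 fold change 0.67). Uchl1 had a log2 fold change of 0.11, and Zbtb16, which ran from 16.3 to 156 CPM over the mice, a log2 fold change of 0.90.

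Lists of genes are given with their counts and medians as a description of the tested members, and the genes the gate used were left out of them. Of 13 remaining preleptotene and meiotic-entry genes, 11 were tested in the sub-cluster; 0 were called, 3 had log2 fold changes above 0 and 8 below, with a median of -0.16. All 5103 tested genes had a median of 0.0066, with 2600 above 0 and 2503 below. The 3 most abundant members were Sycp3 at 0.28 (SE 0.319), the meiotic cohesin Smc1b at -0.16 (SE 0.232) and the germ-cell surface protein Tex101 at 0.11 (SE 0.263). Each of these overlapped between the groups.

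Of 26 genes of leptotene and zygotene recombination, 18 were tested, 4 above 0 and 14 below (median -0.14). Its most abundant members were Sycp1 at a log2 fold change of 0.01 (SE 0.260), Tex15, a partner of recombination and piRNA silencing, at -0.29 (SE 0.259), and Syce2, of the central element of the synaptonemal complex, at -0.09 (SE 0.227). Of 27 remaining genes of undifferentiated spermatogonia, 5 were tested and all 5 were above 0 (median 0.27), among them Taf4b, a transcription cofactor, at 0.06 (SE 0.273) and Foxo1 at 0.27 (SE 0.361). Without stage groups 6 and 7, the medians were -0.37 for meiotic entry (1 above 0 and 9 below of 10), -0.39 for recombination (18 below 0 of 18) and 0.45 for undifferentiated spermatogonia (5 above 0 and 1 below of 6). No gene of these lists was called in either fit.

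The retinoic acid list, which holds enzymes, binding proteins and targets, kept 19 of its 21 genes once the gate genes Stra8 and Crabp1 were left out. Only 2 of the 19 were tested in the sub-cluster: Aldh1a2, which makes retinoic acid, at a log2 fold change of -0.35, and Rdh11, a retinol dehydrogenase, at -0.08. The DNA replication list had 24 of 37 genes tested, 15 above 0 and 9 below (median 0.20), with Slbp, which binds histone mRNA, at 0.20 and Dut, which removes dUTP, at 0.21. The mitosis list had 26 of 31 tested, 18 above 0 and 8 below (median 0.11), with the kinetochore protein Cenpf at 0.32 and the topoisomerase Top2a at -0.10. Ribosomal proteins had 81 of 83 tested, 65 above 0 and 16 below (median 0.16). DNA methylation genes had 5 of 13 tested, 4 above 0 and 1 below (median 0.32). In none of these lists was a gene called.

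Signalling, stress and death genes were not called either. In the antioxidant list 12 of 29 genes were tested, 7 above 0 and 5 below (median 0.11), led in level by Gstm5 at a log2 fold change of -0.36, Prdx1 at 0.17 and Gpx4 at -0.08. Of the list of p53 and apoptosis genes, 6 of 21 were tested, 4 above 0 and 2 below (median 0.26), with Bax, which opens the outer mitochondrial membrane, at 0.46. The 3 tested of 18 immediate early genes were below 0: Jund at -0.04, Klf4 at -0.64 and Klf2 at -1.05 (SE 0.475, edgeR adjusted p = 0.802). Growth factor receptors and signalling had 8 of 20 tested, 6 above 0 and 2 below (median 0.0439).

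Markers of other cell types moved beside these values. The round spermatid list had 8 of its 12 genes tested in the spermatogonial sub-cluster, all 8 below 0 (median -0.65), and its summed level was 1062, 1146 and 1010 CPM in controls and 462, 1232 and 454 CPM with nicotine. The 14 Sertoli genes, 1 of them at 0, summed to 680, 517 and 713 CPM in controls and 355, 2854 and 283 CPM with nicotine, so that nicotine 2 stood apart. Leydig, stromal, macrophage and endothelial lists each summed to at most 32.6 CPM in any mouse. The part of these transcripts in the results above was not tested, except that the values without stage groups 6 and 7 leave out stage group 6, the stage group with the highest round spermatid sum. With cells that carried somatic markers left out, edgeR called 0 of 4740 genes; Meioc was at -1.03, Stra8, as a description, at -1.16, and Sycp3 turned to -0.0330.

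Outside the lists, the smallest p in the sub-cluster belonged to Fam24a, at 261, 156 and 231 CPM in controls and 87.6, 83.5 and 60.9 CPM with nicotine (log2 fold change -1.47, SE 0.304, edgeR adjusted p = 0.174). Fam24a led stage group 6, and without stage groups 6 and 7 it was at 18.6, 32.0 and 29.6 CPM against 31.4, 27.5 and 18.5 CPM, with overlap. Ube2e2, a ubiquitin-conjugating enzyme, was at 126, 92.0 and 137 CPM against 243, 251 and 266 CPM, without overlap (log2 fold change 1.10, SE 0.263, edgeR adjusted p = 0.327). Fam24a and Ube2e2 were singled out after their values were seen. When nicotine 2 was left out, 8 genes were called: Nckap5, Cst12, Cdiptos, Fam24a, Gstt4, Armh2, Krt88 and Lyzl1.

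In all gated cells together, edgeR called 0 of 15139 genes (0%), with 2356 at an unadjusted p under 0.05; 20.8% of the genes had no overlap between the groups. DESeq2 called 158 genes, 107 higher and 51 lower with nicotine. EdgeR called 286 without control 3, 69 without nicotine 2 and 1 without control 2. The edgeR adjusted p began at 0.0510. The 5 genes of smallest p on the higher side were Cst13, Prdx4, Tuba8, Calr3 and Tepp, and on the lower side Gm8138, Akr1cl, Gm20621, Cutc and Ppp1r27. Cst13, a cystatin, was at 101, 102 and 118 CPM in controls and 168, 162 and 144 CPM with nicotine (log2 fold change 0.58, SE 0.0883). Prdx4, a peroxiredoxin of the endoplasmic reticulum, was at 144, 140 and 147 CPM and 211, 191 and 185 CPM (log2 fold change 0.47, SE 0.0777). Akr1cl, which led sub-cluster 12, was at 2.63, 3.21 and 7.42 CPM and 0.196, 0.691 and 0.590 CPM (log2 fold change -3.05, SE 0.562, edgeR adjusted p = 0.0646). These levels came mainly from the other gated cells: in the spermatogonial sub-cluster Cst13 had 28 UMIs and Prdx4 a log2 fold change of 0.19 (SE 0.257).

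In the other gated cells, a fit added after the data were seen, edgeR called 494 of 14367 genes (3.44%), 414 higher and 80 lower with nicotine, and DESeq2 called 479. Genes of spermatids rose together: 8 of 12 round spermatid genes and 7 of 10 elongating spermatid genes rose, and none fell. Acrv1, a protein of the acrosome, rose from 580 ± 23.7 to 738 ± 40.0 CPM (SD, n = 3 each; log2 fold change 0.41, SE 0.0637, edgeR adjusted p = 0.0105). Izumo1, the sperm protein that binds the egg, rose from 120 ± 4.31 to 147 ± 3.85 CPM (log2 fold change 0.35, edgeR adjusted p = 0.0218). Smcp, of the sperm mitochondrial capsule, rose from 1174 ± 49.7 to 1331 ± 42.1 CPM, and Akap4, of the fibrous sheath, from 259 ± 15.4 to 302 ± 14.8 CPM. The groups did not overlap for these 4 genes, which were chosen after their values were seen. The share of all genes without overlap was not counted in the other gated cells. In all gated cells together it was 20.8%. Called genes numbered 46, 215 and 1204 without control 1, 2 and 3, and 0, 319 and 0 without nicotine 1, 2 and 3. Sub-cluster 6, with 6977 CPM of the round spermatid list, had the larger share with nicotine, and sub-cluster 5, with 1798 CPM, the smaller share, as given above; the part of this make-up in the rise was not tested.

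Among the genes of earlier steps in the other gated cells, Sycp3 fell from 73.7 ± 12.5 to 45.3 ± 3.28 CPM (log2 fold change -0.64, SE 0.124, edgeR adjusted p = 0.0204) and was the only called gene of the 11 tested in the meiotic-entry list without the gate genes. Syce2, of the central element of the synaptonemal complex, rose from 255 ± 16.6 to 339 ± 24.2 CPM (log2 fold change 0.47, edgeR adjusted p = 0.0105). In the mitosis list 2 of 29 tested genes fell, Prc1 and Cdk1, and 0 rose; Cdk1, the kinase that drives cells into division, fell from 32.5 ± 5.55 to 19.1 ± 4.53 CPM. No gene of the pachytene list was called, with 3 log2 fold changes above 0 and 11 below (median -0.15), against a median of -0.0076 over all tested genes.

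Of 18 tested antioxidant genes in the other gated cells, Prdx4 rose (log2 fold change 0.51) and Prdx5, Gclc and Gstm1 fell. Gstm1, a glutathione transferase, fell from 6.50 ± 2.42 to 1.58 ± 0.478 CPM (log2 fold change -1.98, edgeR adjusted p = 0.0203); without sub-cluster 12 it was at -1.09 with an adjusted p of 0.0804. Aldh1a1, which also makes retinoic acid, fell by 1.63 on the log2 scale (adjusted p = 0.0337), and was at -1.21 (adjusted p = 0.0938) without sub-cluster 12. Insl3 fell from 2.86 ± 0.707 to 0.913 ± 0.0864 CPM and was not tested without that sub-cluster. Without sub-cluster 12, edgeR called 577 genes in the other gated cells. The largest rises among called genes of at least 10 CPM without overlap included Nim1k (0.95), Gm136 (0.84) and Gm10578 (0.83 on the log2 scale), and the largest falls Ppig (-0.88), Jagn1 (-0.85) and Ggps1 (-0.84).

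Whether gated cells changed otherwise than the rest was tested with an interaction term. Between gated cells and the other eligible barcodes, 22 of 21054 genes differed in their change (0.104%), 2 with a higher change in gated cells (Tmsb4x and Ttc24) and 20 with a lower one; these names were chosen after the values were seen. For Fgf14, a fibroblast growth factor homologue, the difference of changes was -0.65 (log2, SE 0.0831, edgeR adjusted p = 0.0060), from a log2 ratio of group means of -0.43 in gated cells and 0.20 in the others. Diablo, a promoter of apoptosis, had a difference of -0.57 (SE 0.0806, edgeR adjusted p = 0.0071). The count was 2, 5 and 39 without control 1, 2 and 3, and 0, 112 and 16 without nicotine 1, 2 and 3. Of the 16 without nicotine 3, 9 had a higher change in gated cells and 7 a lower one. The count was 479 when the other barcodes were limited to those under 3% of protamine and transition protein UMIs. Meioc was not among the 22.

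Between the spermatogonial sub-cluster and the other gated cells, 49 of 13913 genes differed in their change (0.352%), 21 with a higher change in the sub-cluster and 28 with a lower one. Calm2, a calmodulin gene, had a difference of 1.34 (log2, SE 0.233, edgeR adjusted p = 1.4e-04), and the mitochondrial gene mt-Nd1 a difference of 1.18 (SE 0.223, edgeR adjusted p = 8.6e-04). The eligibility limit of 20% bounds mitochondrial UMIs. The lower set included Fam24a (-1.60, SE 0.323) and Hils1, a spermatid linker histone. Tnp1, Tnp2 and Prm1 were also among the 28, but the gate capped them, so they are no result. The count was 19, 5 and 79 without control 1, 2 and 3, and 0, 128 and 32 without nicotine 1, 2 and 3. Without stage groups 6 and 7 the count was 8.

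The nicotinic acetylcholine receptor subunits, the receptors of nicotine, were low in the spermatogonial sub-cluster, where 8 of 16 subunit genes had no UMI among 1128467, which allows up to 2.66 CPM for each. Chrne, the adult muscle subunit, was at 65.1, 35.4 and 61.4 CPM in the control sub-cluster and 38.9, 118 and 55.4 CPM with nicotine (log2 fold change 0.30, SE 0.433). In all gated cells Chrne was at 266, 273 and 261 CPM in controls and 240, 279 and 301 CPM with nicotine (log2 fold change 0.05, SE 0.0852). Chrna9 averaged 46.8 CPM in gated cells and 22.1 CPM in the other eligible barcodes. None of the 4 subunit genes tested in gated cells was called.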

How the data were processed

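Single-cell libraries of whole testis from 6 mice were aligned and counted with Cell Ranger 7.2.0 against GRCm38, per the submitters' processing notes. The values deposited by the authors are raw UMI counts per gene and barcode, per the file headers, with no normalization. Of 32285 features, 32235 matched a position. Group and replicate came from the labels; nothing but the mouse separates replicates. The gated cells, their genes and the gene lists were chosen with earlier results of these data known.

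Cells were scaled to 10000 UMIs, and 2000 variable genes, 30 components, 15 neighbours and Leiden resolution 1 gave the sub-clusters (scanpy 1.11.5). Counts were summed per mouse and tested with edgeR 4.0.16 (TMM, filterByExpr, quasi-likelihood, Benjamini-Hochberg, adjusted p under 0.05). DESeq2 1.42.0, RLE factors, no filter, doublet removal, other gates, equal cells per mouse and each mouse left out were alternatives. The planned test of each sub-cluster required 20 cells in every mouse, which none had, so those of the spermatogonial sub-cluster and of the other gated cells were added after the data were seen. Single measures per mouse had an exact permutation test; 3 against 3 mice cannot go below p = 0.1. A mouse's count of 3 UMIs was taken as the limit that 0 allows, and intervals cover counting error only.

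Named genes followed this rule: for the gated cells, up to 10 called genes per direction (mean 10 CPM or more, groups not overlapping), or the 5 of smallest p per direction where under 10 were called, the gate markers, and the 3 list members of highest mean CPM; for leading genes, the largest ratios among genes of at least 50 CPM, with a pseudocount of 1 CPM. Other genes, those of the added fits included, were chosen after their values were seen. On simulated data with 200 changed genes, the test on gated cells (14879 genes) recovered 32.8, 64.2 and 90.9% of 1.5-, 2- and 4-fold changes, and that on the spermatogonial sub-cluster (4730 genes) recovered 7.46, 38.8 and 92.4%. Promoter windows are RefSeq's; Gm4969 was matched by its RefSeq synonym Bhmg1.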

Additional observations from a re-analysis of the deposited data

Results flagged for a closer look

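Nicotine and control cells differed in their change between cell populations for 2 sets of genes, by the interaction term of edgeR. Between the gated cells and the other eligible barcodes, 22 of 21054 genes differed; 20 had a lower change in gated cells, led by Fgf14, Diablo and Ppp1r27, and Tmsb4x and Ttc24 had a higher one. The count was 2, 5 and 39 without control 1, 2 and 3, and 0, 112 and 16 without nicotine 1, 2 and 3. Against other barcodes under 3% of protamine and transition protein UMIs it was 479. Between the spermatogonial sub-cluster and the other gated cells, 49 of 13913 genes differed. The 21 with a higher change in the sub-cluster included Calm2, Cks2, Alyref and the mitochondrial genes mt-Nd1, mt-Nd3, mt-Atp6, mt-Co2, mt-Cytb and mt-Nd4; mitochondrial UMIs were bounded by the eligibility limit of 20%. The 28 with a lower change included Fam24a, Tex33, Armh2, Krt88 and Hils1, and also Tnp1, Tnp2 and Prm1, which the gate capped and which are no result. The count was 19, 5 and 79 without control 1, 2 and 3, 0, 128 and 32 without nicotine 1, 2 and 3, and 8 without stage groups 6 and 7.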

How the results depend on the processing

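Alternatives to the gate, the filter, the scaling and the mice moved counts of called genes more than they moved directions. For all gated cells edgeR called 0 genes, and other settings gave 158 (DESeq2), 131 (doublets removed), 2 (gate of at least 0.1% of UMIs), 629 (no low-count filter), 9 (RLE factors), 71 (cells with somatic markers left out) and 31 (without sub-cluster 12); leaving out single mice gave 0 to 286, with 286 without control 3, 69 without nicotine 2 and 1 without control 2. Cst13 and Tuba8 turned to -0.61 and -0.99 at the 0.1% gate. For the spermatogonial sub-cluster the count was 3 without the low-count filter, and 0 to 8 with single mice left out (8 without nicotine 2); DESeq2, RLE factors and the other clusterings gave 0. For the other gated cells, single mice left out gave 0 to 1204: 46, 215 and 1204 without control 1, 2 and 3, and 0, 319 and 0 without nicotine 1, 2 and 3. The difference between gated and other eligible barcodes gave 479 genes when those others were limited to protamine and transition protein shares under 3%. With single mice left out it gave 0 to 112 (2, 5 and 39 without control 1, 2 and 3, and 0, 112 and 16 without nicotine 1, 2 and 3). That between the spermatogonial sub-cluster and the other gated cells gave 8 genes without stage groups 6 and 7, and 0 to 128 with single mice left out (19, 5 and 79 without control 1, 2 and 3, and 0, 128 and 32 without nicotine 1, 2 and 3). The cause of these changes was not tested.

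The log2 ratio of the gated share, nicotine over control, turned from -0.34 to 0.0149 when Dmrtb1 was left out of the gate. That of the spermatogonial share of eligible barcodes, 0.0447, turned to -0.0816 at resolution 0.5 and ran from -0.0231 to 0.13 with single mice left out. That of the median mitochondrial share ran from -0.50 to 0.38, and was 0.38 without control 3. In the spermatogonial sub-cluster the log2 fold change of Meioc stayed below 0 in all 16 alternatives (-1.60 to -0.81), with adjusted p from 0.183 to 0.999; that of Stra8, a gate gene given as a description, ran from -1.54 to -0.80. Values near 0 turned sign: Dazl to -0.12 both with the gate genes left out of the clustering and with Dmrtb1 left out of the gate, to -0.21 with doublets removed, -0.0200 without somatic-marker cells and -0.14 without stage groups 6 and 7; Uchl1 to -0.0146 and -0.0169 with doublets removed and without those stage groups; Crabp1 to 0.0414, and Sycp3 to -0.28, with the gate genes left out of the clustering; Sycp3 to -0.0330 without somatic-marker cells. With single mice left out, Dazl ran from -0.14 to 0.22, Uchl1 from -0.25 to 0.34, Crabp1 from -0.50 to 0.15, Kit from -0.0621 to 0.53 and Sycp3 from -0.34 to 0.53.

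Replicate numbers did not pair the mice: deviations of same-numbered mice correlated at -0.03, 0.22 and -0.03 in gated cells and at 0.08, -0.09 and 0.02 in the sub-cluster. With a replicate block, 506 genes were called in gated cells, 1649 in the other gated cells and 0 in the sub-cluster, where Dazl was at -5.7e-04. The sub-cluster had 18 to 24 cells in each mouse.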
